A study of Mus musculus with 8 samples.

Results

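The genes described here are 35 genes of cholesterol and fatty acid synthesis, taken by name from the 39089 genes of the count tables. The rule uses no measured value, but the genes were chosen with earlier results of these data known. All 35 had at least 1 count in each of the 8 samples. They comprise 8 genes of the steps from acetyl-CoA to squalene, 10 genes of the steps from squalene to cholesterol, 6 genes that control the SREBP transcription factors or carry sterol, 7 genes of fatty acid synthesis and 4 genes of the LXR receptors and sterol efflux. The samples are RNA-seq libraries of Myc-CaP cells, which derive from a mouse prostate tumor, grown as subcutaneous tumors in male FVB mice aged 6 weeks and recovered from the tumors by a sort for EpCAM-positive, CD45-negative cells. The cells carried a control vector (Myc-CaP EV, called WT here) or a guide RNA against *Arid1a* (Myc-CaP Arid1a KO, called KO here), a subunit gene of the SWI/SNF chromatin remodeler. From day 16 the hosts received vehicle, or JSH-23, an inhibitor of the nuclear entry of the NF-κB subunit p65, daily by gavage for 2 weeks. This gave 4 groups of 2 samples: WT with vehicle, WT with JSH-23, KO with vehicle and KO with JSH-23. Neither the labels nor the methods state whether the edited cells were a clone, or whether the samples of a group came from separate tumors.

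The libraries held 16650998 and 16803946 counts in WT vehicle samples, 17792910 and 16401581 in WT JSH-23 samples, 17559823 and 20066676 in KO vehicle samples, and 19353506 and 21972231 in KO JSH-23 samples. The 35 genes took between 0.424% and 0.466% of the counts of a sample. Levels are given as CPM after TMM scaling, and at these depths 3 counts correspond to between 0.144 and 0.182 CPM, a limit that covers counting error only. The test was edgeR's quasi-likelihood test over the 8 samples, on the 13921 genes that passed a filter on low counts, with Benjamini-Hochberg adjustment over all of them. A gene is said to have risen or fallen at an adjusted p under 0.05, and a change of at least 1.5-fold is stated separately. Of the 35 genes, 34 were tested, and *Abcg1* was too low. The p-values rest on how far 2 samples of a group lie apart, which was little (common biological coefficient of variation 1.61%, with chi-square over degrees of freedom at 1.46 to 1.57 against sampling noise) and may reflect technical spread alone.

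Cells build cholesterol from acetyl-CoA by way of mevalonate, the isoprenoid farnesyl diphosphate, squalene and lanosterol, and build fatty acids from the same acetyl-CoA by carboxylation and elongation. When sterol in the endoplasmic reticulum is low, SCAP carries SREBP proteins to the Golgi for cleavage, and the released factors raise the transcription of most enzymes of both routes, while INSIG proteins hold SCAP back when sterol is plentiful. When oxysterols accumulate, LXR receptors raise the transporters that export cholesterol, and prostate cancer cells are known for active lipid synthesis.

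*Arid1a*, on chromosome 4 of GRCm38 from 133679008 to 133756769, stood at 156 and 161 CPM in WT vehicle samples, 144 and 155 in WT JSH-23 samples, 103 and 106 in KO vehicle samples, and 93.8 and 95.9 in KO JSH-23 samples. Each KO sample was below each WT sample, and the remaining level was a log2 difference of -0.60 (SE 0.04, adjusted p = 1.39e-23 in edgeR) with vehicle and -0.66 (SE 0.04, adjusted p = 5.12e-25) with JSH-23.

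The markers of the sorted cell type were only partly present. *Epcam*, the gene of the surface protein used in the sort, had between 0 and 4 counts in a sample, *Cdh1* between 1 and 19 and *Krt18* between 4 and 18. The 5 epithelial markers summed to 102 and 88.5 CPM in WT vehicle samples, 45.3 and 47.0 in WT JSH-23 samples, 217 and 215 in KO vehicle samples, and 179 and 187 in KO JSH-23 samples. Nearly all of this came from *Krt8*, the most abundant, and *Krt19*, both keratins, and the sums were higher in every KO than in every WT sample and lower with JSH-23 in either genotype. *Krt19* rose by 1.40 on the log2 scale in KO tumors with vehicle (SE 0.05, adjusted p = 1.48e-34 in edgeR). Whether this keratin difference bears on the lipid genes was not tested.

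The 11 leukocyte markers summed to between 10.3 and 22.5 CPM, with *Cd68* the most abundant over all samples and in each KO sample and *Lyz2* in each WT sample, and *Ptprc*, the gene of CD45, had between 0 and 10 counts. The sums were 19.5 and 21.1 CPM in WT vehicle samples, 19.9 and 10.4 in WT JSH-23 samples, 20.2 and 22.5 in KO vehicle samples, and 12.9 and 10.3 in KO JSH-23 samples, so the low sums were in JSH-23 samples and the ranges overlapped in WT tumors. These sums hide a difference between genotypes: without *Cd68* they were 13.0 and 13.6 CPM in WT vehicle samples, 14.5 and 5.47 in WT JSH-23 samples, 3.54 and 4.17 in KO vehicle samples, and 3.95 and 2.93 in KO JSH-23 samples, each KO sample below each WT sample. With vehicle, *Cd68* was higher in KO tumors at a log2 difference of 1.32 and *Lyz2* lower at -1.59, and *Adgre1* had 17 and 19 counts in WT and 0 and 0 in KO samples. Whether this bears on the lipid genes was not tested. The 7 adipocyte markers, of interest because adipocytes make much lipid, summed to between 45.4 and 65.7 CPM, of which all but 0.238 to 2.54 CPM was *Fabp4*. These sums, like those of the fibroblast markers below, exceeded the epithelial sums in WT JSH-23 samples. They were 52.0 and 58.6 CPM in WT vehicle samples, 53.0 and 56.2 in WT JSH-23 samples, 45.4 and 51.3 in KO vehicle samples, and 65.7 and 60.6 in KO JSH-23 samples. The KO JSH-23 samples were thus highest, as they were for the summed sterol enzymes below. Of the 2 adipocyte markers tested, JSH-23 raised 1 and lowered 1 in KO tumors. Whether the adipocyte sums bear on the lipid genes was not tested. The defining adipocyte genes *Adipoq* and *Lep* had at most 4 and 1 counts. The 6 fibroblast markers summed to 57.7 and 60.6 CPM in WT vehicle samples, 58.0 and 56.5 in WT JSH-23 samples, 62.8 and 63.1 in KO vehicle samples, and 39.9 and 40.0 in KO JSH-23 samples, nearly all from *Pdgfra*, with at most 2 counts of *Lum* and of *Thy1*. The 4 endothelial markers summed to at most 1.68 CPM, with *Pecam1* the most abundant, and the 6 markers of skin and sebaceous gland to at most 6.35 CPM, with *Krt10* the most abundant and *Lor* and *Mc5r* at 0 counts in all 8 samples. Fewer cells of a type and less RNA per cell cannot be told apart in these sorted bulk samples.

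Per length, in the deposited TPM values, the 35 genes had a median of 22.3 TPM over the 8 samples, against 16.5 TPM over the genes tested, and 26 of the 35 were above the latter. *Scd2*, a stearoyl-CoA desaturase, dominated, with a mean of 935 TPM and 43.0% of the summed TPM of the 35 genes. The next were *Acly*, which makes cytosolic acetyl-CoA from citrate, at 122 TPM, the desaturase *Scd1* at 108 TPM, and *Nr1h2*, the gene of LXRβ, at 93.1 TPM. *Srebf2* (88.6 TPM), *Fasn* (86.6 TPM), *Pmvk* (75.9 TPM) and *Srebf1* (72.6 TPM) followed, and the ranges of these neighbors over the samples overlapped. The lowest were *Abca1* at 6.65 TPM, *Hsd17b7* at 2.23 TPM, *Nr1h3*, the gene of LXRα, at 0.647 TPM and *Abcg1* at 0.125 TPM. The sterol exporter *Abcg1* had between 1 and 14 counts per sample and *Nr1h3* between 7 and 21. How large a change could be detected at such counts was not tested.

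**Figure D1:**
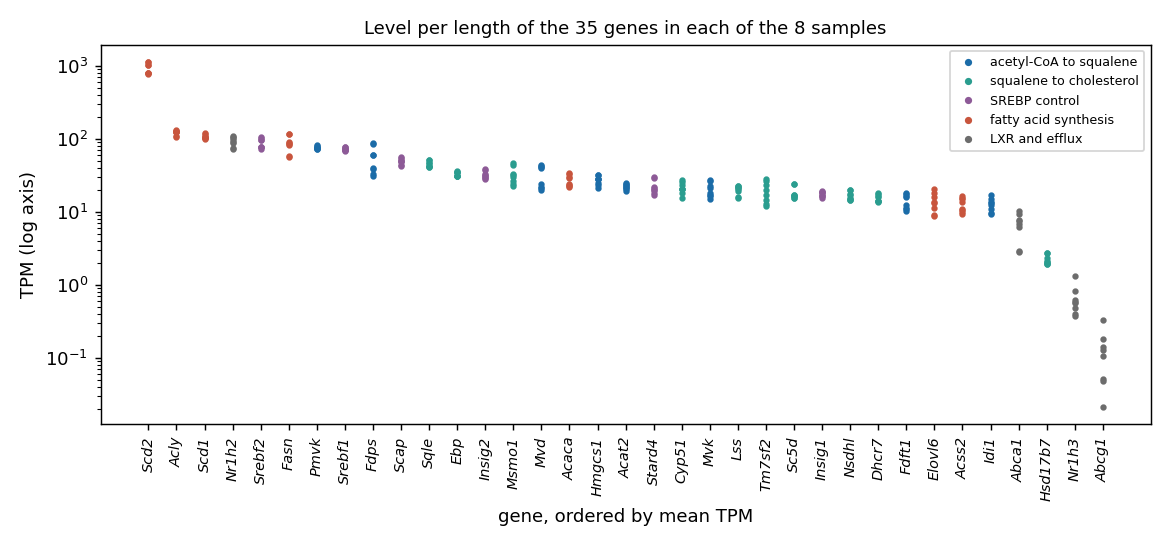
Level per length (TPM, log axis) of the 35 genes in each of the 8 samples, 1 point per sample, ordered by mean TPM and colored by role. *Scd2*, with a mean of 935 TPM, lies apart from the rest, and *Nr1h3* and *Abcg1* are lowest.

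Summed over the 18 enzymes from acetyl-CoA to cholesterol, the level was 475 and 476 CPM in WT vehicle samples, 546 and 552 in WT JSH-23 samples, 496 and 502 in KO vehicle samples, and 734 and 730 in KO JSH-23 samples. The KO samples with JSH-23 thus stood above all others, and the 4 groups did not overlap. The 7 genes of fatty acid synthesis, whose sum is mostly *Scd2*, gave 3389 and 3374 CPM, 2898 and 2924 CPM, 3001 and 3006 CPM, and 3169 and 3160 CPM in the same order. On this scale the WT samples with vehicle were highest and the WT samples with JSH-23 lowest. As summed TPM the 7 genes gave 1495 and 1490, 1195 and 1202, 1352 and 1358, and 1181 and 1171 in the same order, so there the KO samples with JSH-23 were lowest and the KO change with JSH-23 turned from higher to lower.

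The first comparison asks what loss of *Arid1a* does to these genes in tumors given vehicle. Here 9 of the 34 genes rose, against 25.0% of all genes tested, and 10 fell, against 25.5%. In edgeR 0 of the 34 rose 1.5-fold (0 also at an unadjusted p under 0.05 and in DESeq2), where 7.48% of all genes did, the largest rise being that of *Sc5d* at 0.50 on the log2 scale, and 3 fell 1.5-fold, where 5.16% did. These 3 were *Elovl6*, *Fasn* and *Abca1*. The median log2 fold change was -0.03 over the 34 genes and 0.00 over all genes tested. By role, 0 of the 8 genes before squalene rose and 4 fell in edgeR, while 7 of the 10 genes after squalene rose and 0 fell. DESeq2 called 0 and 3, and 4 and 0, where it called 2462 of all 13921 genes higher and 2763 lower. At an unadjusted p under 0.05 the edgeR counts were again 0 and 4, and 7 and 0. The 7 fell to 4 without the first WT vehicle sample or without either KO vehicle sample, with *Lss* losing its call in 5 of the 8 fits that leave out a sample and *Sqle* and *Hsd17b7* in 3 each.

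The second comparison sets KO against WT tumors that both received JSH-23. Here 23 of the 34 genes were higher in KO tumors, against 23.2% of all genes, and 3 were lower, against 23.8%. With a 1.5-fold change, 4 were higher (*Stard4*, *Msmo1*, *Lss* and *Fdps*), against 3.74%, and 1 was lower (*Abca1*), against 4.97%, while on log2(TPM + 1) 2 were higher (*Stard4* and *Msmo1*), against 1.21%, and 2 lower (*Abca1* and *Elovl6*), against 6.39%. The median log2 difference was 0.32 over the 34 genes and -0.01 over all genes tested. Of the 18 sterol enzymes, 14 were higher in KO tumors. On log2(TPM + 1) the counts over the 34 genes were 16 higher and 7 lower, where 1252 of all 13921 genes were higher and 5793 lower.

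The third comparison is JSH-23 against vehicle in WT tumors. JSH-23 raised 16 of the 34 genes, against 28.6% of all genes, and lowered 8, against 27.2%. It raised 3 by 1.5-fold (*Tm7sf2*, *Mvd* and *Fdps*), against 5.55%, and in edgeR lowered 0 by 1.5-fold (0 also at an unadjusted p under 0.05 and in DESeq2), where 10.2% of all genes were lowered, the largest fall being that of *Scd2* at -0.45 on the log2 scale. The median was 0.11 over the 34 genes and -0.01 over all genes tested, and over the 34 it was 0.20 without the second WT vehicle sample and 0.07 on log2(TPM + 1).

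The fourth comparison is JSH-23 against vehicle in KO tumors, and it held the most changes of these genes. JSH-23 raised 26 of the 34, against 33.4% of all genes, and lowered 4, against 34.4%. By at least 1.5-fold it raised 14, against 9.10%, and lowered 1 (*Abca1*), against 16.9%. On log2(TPM + 1) it raised 20 of the 34, where 2320 of all 13921 genes rose, and 6 of them by 1.5-fold, against 2.92%. The median was 0.41 over the 34 genes and -0.02 over all genes tested. All 8 genes before squalene rose, 7 of the 10 after squalene rose and *Sc5d* fell, 5 of the 6 SREBP control genes rose, and 6 of the 7 fatty acid synthesis genes rose while *Scd2* fell. In the same order, the values were positive for 8, 8, 5 and 6 genes in edgeR and for 7, 7, 3 and 5 on log2(TPM + 1). These 4 comparisons share samples, so their values are given side by side.

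The size of these shifts depends on the scaling, since other scalings move all genes together. In KO tumors with JSH-23 against vehicle, the median of all genes moved from -0.02 with TMM to -0.13 without it and to -0.20 on log2(TPM + 1), and the share of called genes that rose went from 49.3% to 37.7% and 25.2%. Relative to the median of all genes, the median of the 34 genes was 0.43 with TMM, 0.43 without it and 0.38 on log2(TPM + 1), and 28 of the 34 lay above that median under each. For KO against WT under JSH-23, the median of all genes was -0.16 on log2(TPM + 1) and the share of called genes that were higher went from 49.4% with TMM to 34.4% without it and 17.8% on log2(TPM + 1), and the median of the 34 genes relative to it was 0.33 with TMM and 0.28 on log2(TPM + 1). For the interaction described next, the median of all genes was -0.11 without TMM and -0.17 on log2(TPM + 1), the share of calls that were positive went from 53.3% to 33.1% and 18.7%, and the median of the 34 genes relative to it was 0.31 with TMM and 0.27 on log2(TPM + 1).

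**Figure D2:**
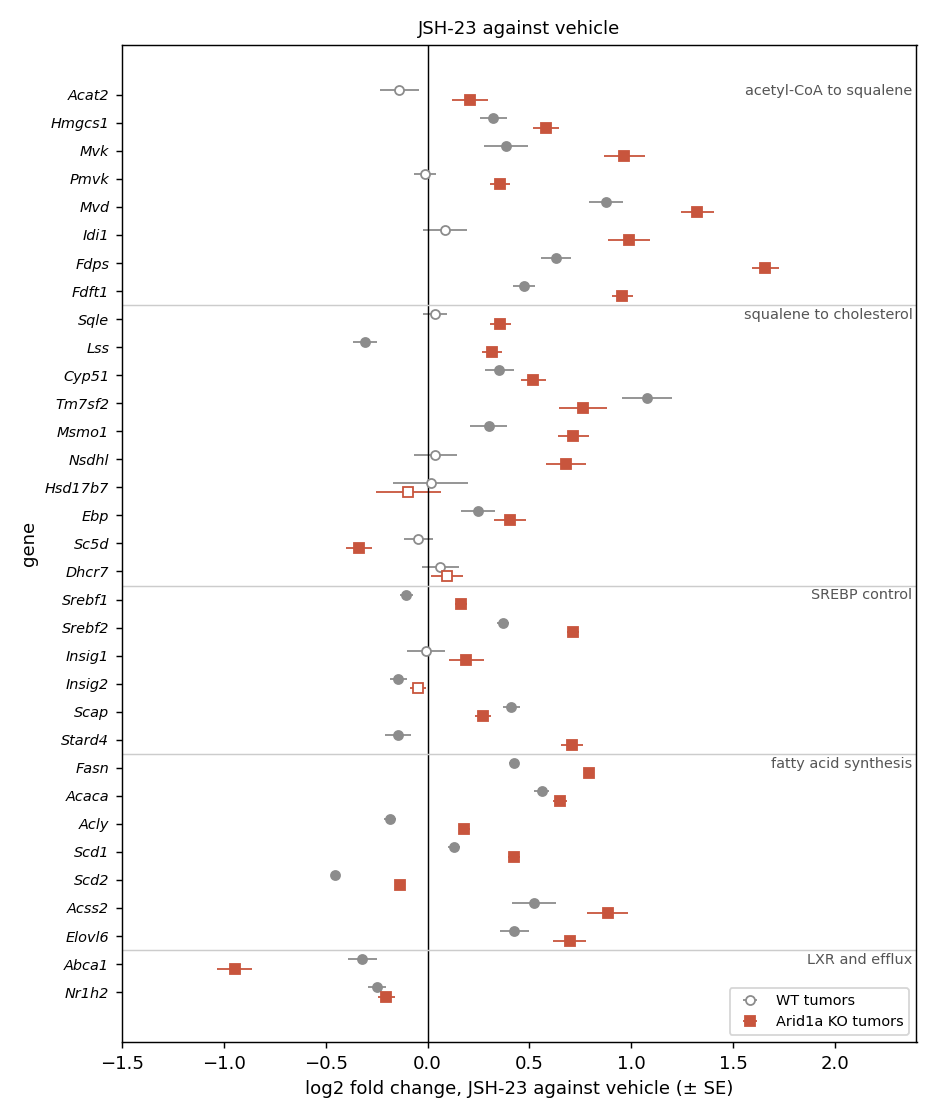
Log2 fold change of JSH-23 against vehicle (± SE) for 33 of the 34 genes tested, by role, in WT tumors (gray circles) and KO tumors (red squares), 2 samples per group, with filled symbols at an adjusted p under 0.05 and *Nr1h3* left out for its low counts. The KO values lie to the right of the WT values for most genes before squalene, with *Fdps* farthest at 1.66, and to the left for *Abca1* at -0.95; small rises of *Acat2*, *Srebf1*, *Insig1* and *Acly* in KO tumors turn negative on TPM values.

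Whether the effect of JSH-23 differed between genotypes was tested as an interaction, the log2 fold change in KO minus that in WT tumors. It was positive and called for 21 of the 34 genes, against 20.5% of all genes, and negative and called for 3 (*Abca1*, *Sc5d* and *Scap*), against 17.9%, of which DESeq2 called only *Abca1*. *Scap* lost its call in 7 of the 8 fits that leave out a sample and *Sc5d* in 2. With a size of at least 1.5-fold, 5 were positive (*Fdps*, *Idi1*, *Stard4*, *Nsdhl* and *Lss*), against 3.30%, and 1 was negative (*Abca1*), against 5.76%. Without TMM and on log2(TPM + 1), *Nsdhl* and *Lss* were under 1.5-fold and 3 were positive, and *Abca1* was under 1.5-fold, at -0.55 and -0.56, without the second WT vehicle or the second KO vehicle sample. The median was 0.31 over the 34 genes and -0.00 over all genes tested. A positive interaction was called for all 8 genes before squalene, 4 of the 10 after squalene, 3 of the 6 SREBP control genes and 6 of the 7 fatty acid synthesis genes. On log2(TPM + 1) the interaction was called for 14 of the 34 genes in place of 24, near the 40.1% of all genes called there (11 positive and 3 negative, where 1040 and 4536 of all genes were), and the median of the 10 genes after squalene went from 0.16 to -0.03.

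Among the genes before squalene, *Fdps*, the synthase of farnesyl diphosphate, moved most with JSH-23 in KO tumors, between genotypes under JSH-23 and in the interaction. With JSH-23 in WT tumors *Mvd* moved more (0.88 against 0.63), as did *Idi1* between genotypes with vehicle (-0.40 against -0.31). Leaving out 1 sample can turn the latter order, since *Idi1* then ranged from -0.55 to -0.24 and *Fdps* from -0.34 to -0.28. On chromosome 3 from 89093588 to 89101967, *Fdps* stood at 22.6 and 23.4 CPM in WT vehicle samples, 35.2 and 36.0 in WT JSH-23 samples, 18.1 and 19.0 in KO vehicle samples, and 59.1 and 58.2 in KO JSH-23 samples. The 4 groups did not overlap, and KO tumors held both the lowest samples, with vehicle, and the highest, with JSH-23. JSH-23 raised it 3.16-fold in KO tumors (log2 1.66, SE 0.07, adjusted p = 4.58e-33 in edgeR) and 1.55-fold in WT tumors (log2 0.63, SE 0.07, adjusted p = 3.84e-11), with an interaction of 1.03 (SE 0.10, adjusted p = 2.69e-13). Between genotypes the log2 difference was -0.31 with vehicle (SE 0.08, adjusted p = 0.00122 in edgeR) and 0.72 with JSH-23 (SE 0.06, adjusted p = 2.65e-16).

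*Mvd*, which decarboxylates mevalonate diphosphate to the first isoprenoid unit, lies on chromosome 8 from 122433596 to 122443422. It stood at 17.9 and 15.9 CPM in WT vehicle samples, 30.7 and 31.3 in WT JSH-23 samples, 15.6 and 14.5 in KO vehicle samples, and 38.3 and 37.0 in KO JSH-23 samples. The JSH-23 samples were above the vehicle samples in either genotype, and with vehicle the KO samples were just below the WT samples. The rise with JSH-23 was 1.84-fold in WT tumors (log2 0.88, SE 0.09, adjusted p = 3.87e-14 in edgeR) and 2.50-fold in KO tumors (log2 1.32, SE 0.08, adjusted p = 1.02e-23), and the interaction was 0.45 (SE 0.12, adjusted p = 0.00185).

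*Idi1*, the isomerase that interconverts the isoprenoid building blocks, lies on chromosome 13 from 8885606 to 8892396. It stood at 12.6 and 15.6 CPM in WT vehicle samples, 14.5 and 15.4 in WT JSH-23 samples, 10.4 and 10.9 in KO vehicle samples, and 22.4 and 20.2 in KO JSH-23 samples. The WT samples overlapped between treatments, and the KO samples with JSH-23 were above all others. The log2 fold change with JSH-23 was 0.99 in KO tumors (SE 0.10, adjusted p = 1.54e-13 in edgeR) and 0.08 in WT tumors (SE 0.11, adjusted p = 0.529), and the interaction was 0.90 (SE 0.15, adjusted p = 7.21e-07). The other genes before squalene that JSH-23 raised 1.5-fold in KO tumors were *Mvk*, mevalonate kinase, at 0.97 and *Fdft1*, squalene synthase, at 0.96 on the log2 scale. *Hmgcs1*, the synthase of HMG-CoA, and *Pmvk*, phosphomevalonate kinase, rose by 0.58 and 0.36, and *Acat2*, which condenses acetyl-CoA, by 0.21, a rise that became -0.02 on log2(TPM + 1). The lowest values of *Hmgcs1* and *Pmvk* over the scalings were 0.33 and 0.115. *Acat2* has a near-identical neighbor, *Acat3*, with a similar number of counts, and reads may be shared between them.

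Among the genes after squalene, *Tm7sf2*, a sterol reductase that acts after lanosterol demethylation, rose most with JSH-23. On chromosome 19 from 6062821 to 6067850, it stood at 7.13 and 8.59 CPM in WT vehicle samples, 17.1 and 16.0 in WT JSH-23 samples, 7.57 and 9.78 in KO vehicle samples, and 15.8 and 14.0 in KO JSH-23 samples. The treated samples were all above the vehicle samples, and with vehicle the genotypes overlapped. The rise was 2.11-fold in WT tumors (log2 1.08, SE 0.12, adjusted p = 1.15e-11 in edgeR) and 1.70-fold in KO tumors (log2 0.76, SE 0.12, adjusted p = 3.73e-08), and the interaction of -0.31 did not pass the test (SE 0.17, adjusted p = 0.151). In KO tumors leaving out 1 sample can end its place as the largest rise. *Tm7sf2* then ranged from 0.60 to 0.98, *Msmo1* from 0.68 to 0.76 and *Nsdhl* from 0.66 to 0.71.

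*Msmo1*, the oxidase that starts removal of the methyl groups at carbon C4 of the sterol, lies on chromosome 8 from 64718123 to 64733578. It stood at 17.8 and 16.6 CPM in WT vehicle samples, 22.2 and 20.0 in WT JSH-23 samples, 22.9 and 24.2 in KO vehicle samples, and 39.3 and 38.2 in KO JSH-23 samples. The groups did not overlap, with WT vehicle samples lowest and KO samples with JSH-23 highest. In KO against WT tumors the log2 difference was 0.46 with vehicle (SE 0.09, adjusted p = 9.03e-06 in edgeR) and 0.87 with JSH-23 (SE 0.08, adjusted p = 8.79e-16), and JSH-23 raised it by 0.72 in KO tumors (SE 0.07, adjusted p = 1.58e-13).

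*Nsdhl*, a dehydrogenase of the same demethylation, lies on chromosome X from 72918521 to 72958528. It stood at 13.7 and 14.7 CPM in WT vehicle samples, 13.3 and 16.0 in WT JSH-23 samples, 13.0 and 12.6 in KO vehicle samples, and 20.7 and 20.4 in KO JSH-23 samples. The WT samples overlapped between treatments, and the KO samples with JSH-23 were above all others. The log2 fold change with JSH-23 was 0.68 in KO tumors (SE 0.10, adjusted p = 6.60e-09 in edgeR) and 0.04 in WT tumors (SE 0.11, adjusted p = 0.776), and the interaction was 0.64 (SE 0.14, adjusted p = 2.03e-04).

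*Lss*, lanosterol synthase, which closes the sterol rings, fell with JSH-23 in WT tumors and rose in KO tumors, a rise that shrank to 0.08 and lost its call on log2(TPM + 1). On chromosome 10 from 76531565 to 76557139, it stood at 51.9 and 55.3 CPM in WT vehicle samples, 42.7 and 44.1 in WT JSH-23 samples, 57.7 and 59.3 in KO vehicle samples, and 72.9 and 73.1 in KO JSH-23 samples. The 4 groups did not overlap, and JSH-23 samples were the lowest in WT and the highest in KO tumors. JSH-23 lowered it by a log2 fold change of -0.31 in WT tumors (SE 0.06, adjusted p = 5.38e-06 in edgeR) and raised it by 0.32 in KO tumors (SE 0.05, adjusted p = 5.05e-08), with an interaction of 0.62 (SE 0.08, adjusted p = 1.83e-10). Of the other genes after squalene, *Sqle*, *Cyp51* and *Ebp*, which epoxidize squalene, demethylate lanosterol and isomerize a sterol double bond, rose in KO tumors with JSH-23 by between 0.36 and 0.52. Their lowest values over the scalings were 0.12, 0.27 and 0.16. *Sc5d*, a sterol desaturase, was higher by 0.50 in KO tumors with vehicle and fell by 0.34 with JSH-23 in KO tumors. For *Dhcr7*, a terminal reductase, and *Hsd17b7*, a ketosteroid reductase, the log2 fold changes with JSH-23 in KO tumors were 0.10 and -0.09 and did not pass the test, with adjusted p of 0.269 and 0.611.

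Among the SREBP control genes, *Stard4*, which carries cholesterol between membranes and is itself an SREBP target, had the largest difference between genotypes under JSH-23, at a log2 difference of 0.95, while with vehicle its difference of 0.09 was not called and those of *Insig2* (0.21) and *Scap* (0.18) were. On chromosome 18 from 33199138 to 33213862, it stood at 43.3 and 42.1 CPM in WT vehicle samples, 39.9 and 37.2 in WT JSH-23 samples, 44.8 and 46.1 in KO vehicle samples, and 74.0 and 74.8 in KO JSH-23 samples. The KO samples with JSH-23 stood well above the other 6 samples, which lay between 37.2 and 46.1 CPM. JSH-23 changed it by a log2 fold change of 0.71 in KO tumors (SE 0.05, adjusted p = 1.29e-19 in edgeR) and by -0.15 in WT tumors (SE 0.06, adjusted p = 0.0416), with an interaction of 0.86 (SE 0.08, adjusted p = 3.88e-14). The WT value lost its call in 6 of the 8 fits that leave out a sample and ranged from -0.20 to -0.09.

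*Srebf2*, the gene of SREBP2, the factor with a preference for sterol enzymes, lies on chromosome 15 from 82147269 to 82205379. It stood at 173 and 170 CPM in WT vehicle samples, 223 and 220 in WT JSH-23 samples, 162 and 172 in KO vehicle samples, and 276 and 273 in KO JSH-23 samples. With vehicle the genotypes overlapped, and with JSH-23 both were higher, KO tumors more so. The rise was 1.29-fold in WT tumors (log2 0.37, SE 0.03, adjusted p = 1.03e-17 in edgeR) and 1.64-fold in KO tumors (log2 0.71, SE 0.03, adjusted p = 2.10e-34), and the interaction was 0.34 (SE 0.04, adjusted p = 1.04e-10).

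*Srebf1*, the gene of SREBP1, which favors lipogenic enzymes, fell by 0.10 on the log2 scale with JSH-23 in WT tumors and rose by 0.17 in KO tumors, and the latter turned to -0.07 on log2(TPM + 1). *Scap*, the escort of SREBP, rose with JSH-23 by 0.41 in WT and 0.27 in KO tumors, the latter being 0.035 and not called on log2(TPM + 1). *Insig1*, a retention protein that is itself an SREBP target, rose by 0.19 in KO tumors, or -0.04 on log2(TPM + 1), while its paralog *Insig2* fell by 0.14 in WT tumors.

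Among the genes of fatty acid synthesis, *Elovl6*, the elongase of saturated fatty acids, fell most with loss of *Arid1a*. On chromosome 3 from 129532386 to 129638495, it stood at 31.8 and 37.5 CPM in WT vehicle samples, 44.1 and 49.2 in WT JSH-23 samples, 21.0 and 20.7 in KO vehicle samples, and 36.5 and 31.4 in KO JSH-23 samples. The KO samples with vehicle were the lowest, and the KO samples with JSH-23 overlapped the WT samples with vehicle. The log2 difference of KO against WT tumors was -0.73 with vehicle (SE 0.08, adjusted p = 6.08e-12 in edgeR) and -0.46 with JSH-23 (SE 0.07, adjusted p = 9.19e-08), and JSH-23 raised it by 0.43 in WT (SE 0.07, adjusted p = 7.25e-07) and 0.70 in KO tumors (SE 0.08, adjusted p = 7.34e-12).

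*Acss2*, which makes acetyl-CoA from acetate, had the largest rise of the fatty acid genes with JSH-23 in KO tumors. On chromosome 2 from 155518043 to 155562743, it stood at 12.1 and 11.2 CPM in WT vehicle samples, 15.9 and 17.6 in WT JSH-23 samples, 10.3 and 12.3 in KO vehicle samples, and 20.3 and 21.5 in KO JSH-23 samples. With vehicle the genotypes overlapped, and the treated samples were higher in either genotype. The rise was 1.84-fold in KO tumors (log2 0.88, SE 0.10, adjusted p = 4.44e-12 in edgeR) and 1.44-fold in WT tumors (log2 0.52, SE 0.11, adjusted p = 3.39e-05).

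*Fasn*, fatty acid synthase, had 367 ± 1.38 CPM in WT and 237 ± 7.42 CPM in KO tumors with vehicle, and 492 ± 5.61 CPM in WT and 410 ± 4.43 CPM in KO tumors with JSH-23 (SD, n = 2 in each group). It was thus lower in KO tumors under either treatment and higher with JSH-23 in either genotype. The log2 fold change with JSH-23 was 0.79 in KO and 0.42 in WT tumors, and *Acaca*, the acetyl-CoA carboxylase that supplies malonyl-CoA to it, rose by 0.65 and 0.56. *Scd2* moved the other way, from 2437 ± 34.2 to 1779 ± 4.28 CPM in WT tumors and from 2198 ± 5.43 to 2003 ± 4.70 CPM in KO tumors (SD, n = 2), log2 fold changes of -0.45 and -0.13, which were -0.49 and -0.37 on log2(TPM + 1), where the interaction went from 0.32 to 0.12. *Acly* fell by 0.19 with JSH-23 in WT tumors and rose by 0.18 in KO tumors, the latter being -0.06 on log2(TPM + 1), and *Scd1* rose by 0.13 and 0.42.

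Among the LXR and efflux genes, *Abca1*, the transporter that loads cholesterol onto apolipoprotein A-I, was lower with loss of *Arid1a*, with JSH-23 and most with both. On chromosome 4 from 53030789 to 53159988, it stood at 42.5 and 38.7 CPM in WT vehicle samples, 32.9 and 32.2 in WT JSH-23 samples, 25.7 and 27.8 in KO vehicle samples, and 14.1 and 13.8 in KO JSH-23 samples. The 4 groups did not overlap, with the WT vehicle samples highest and the KO samples with JSH-23 lowest. In KO against WT tumors it was 1.52-fold lower with vehicle (log2 -0.60, SE 0.07, adjusted p = 8.41e-11 in edgeR) and 2.34-fold lower with JSH-23 (log2 -1.23, SE 0.08, adjusted p = 1.20e-20). JSH-23 lowered it 1.25-fold in WT (log2 -0.32, SE 0.07, adjusted p = 1.09e-04 in edgeR) and 1.93-fold in KO tumors (log2 -0.95, SE 0.09, adjusted p = 9.46e-16), with an interaction of -0.63 (SE 0.11, adjusted p = 4.18e-06). *Nr1h2* fell by 0.25 with JSH-23 in WT and 0.20 in KO tumors.

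**Figure D3:**
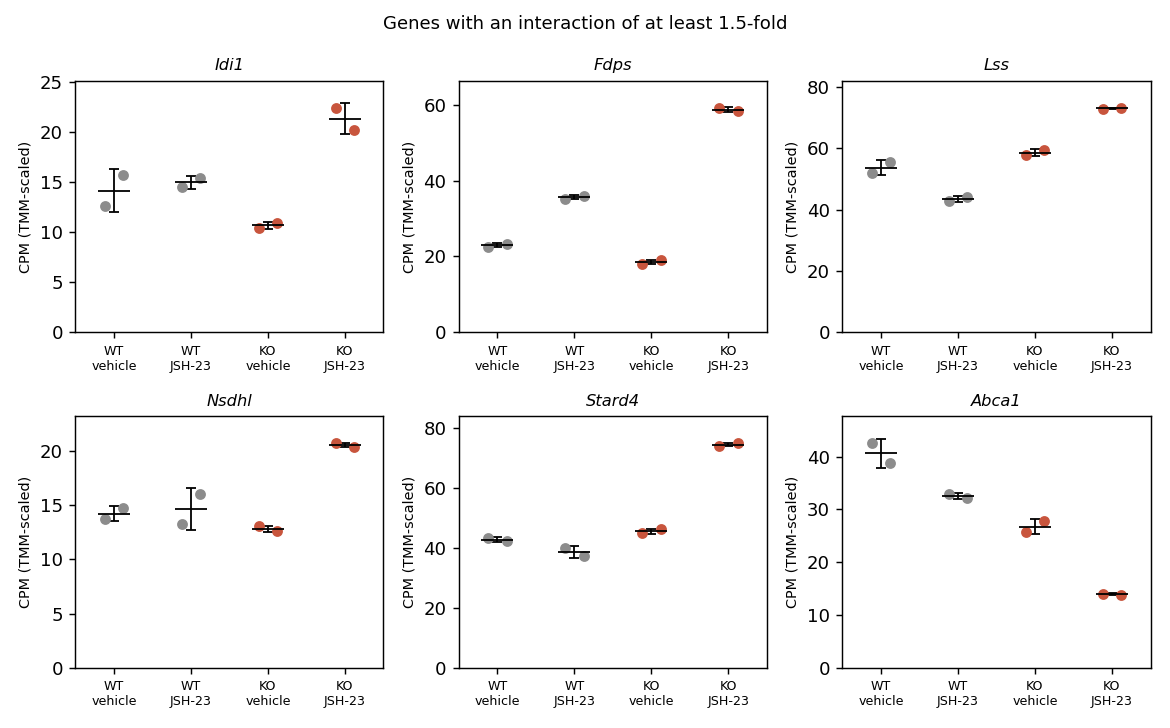
Level (TMM-scaled CPM) of the 6 genes with an interaction of at least 1.5-fold in WT (gray) and KO (red) tumors with vehicle or JSH-23, 1 point per sample with mean and SD (n = 2). For *Idi1*, *Fdps*, *Lss*, *Nsdhl* and *Stard4* the KO samples with JSH-23 are the highest, and for *Abca1* they are the lowest, at 14.1 and 13.8 CPM.

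**Figure D4:**
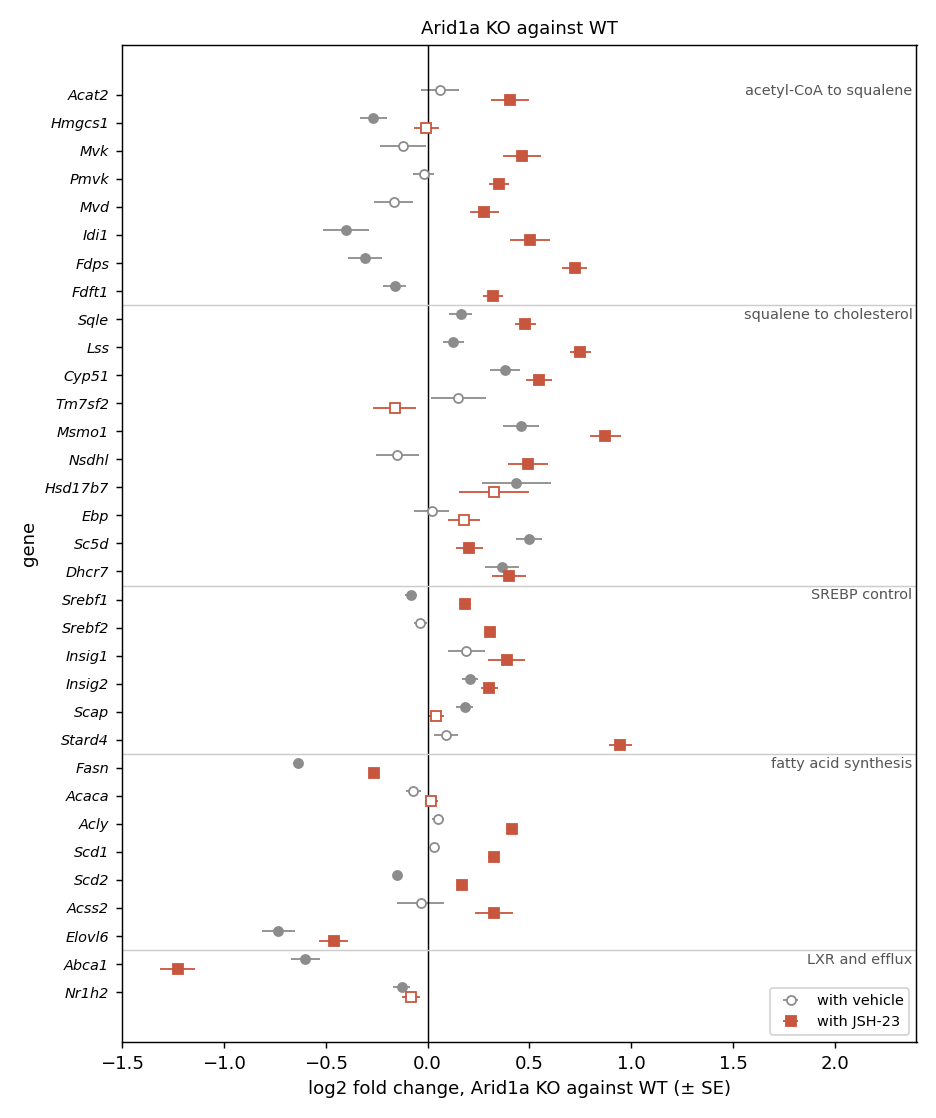
Log2 fold change of KO against WT tumors (± SE) for 33 of the 34 genes tested, by role, with vehicle (gray circles) and with JSH-23 (red squares), 2 samples per group, with filled symbols at an adjusted p under 0.05 and *Nr1h3* left out. Most values with JSH-23 lie to the right of 0, *Stard4* farthest at 0.95, and *Elovl6*, *Fasn* and *Abca1* lie to the left under either treatment; the small positive values of *Srebf1*, *Scap*, *Acaca* and *Scd2* with JSH-23 turn negative on TPM values.

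Other genes of the same metabolism were taken from lists. Of the 10 genes of the isoprenoid branch, which draws on farnesyl diphosphate, JSH-23 raised 4 and lowered 4 in KO tumors, against 33.4% and 34.4% of all genes, and raised 4 and lowered 3 in WT tumors, against 28.6% and 27.2%. *Fnta*, the subunit shared by protein prenyltransferases, fell by 0.62 in WT and 0.92 in KO tumors. *Ggps1*, which makes geranylgeranyl diphosphate, rose by 0.76 in WT and 0.39 in KO tumors. *Fntb*, the farnesyltransferase subunit, was lower in KO tumors with vehicle at a log2 difference of -0.75 and had an interaction of 0.83. In that comparison of genotypes with vehicle, 3 of the 10 were higher and 2 lower, and with JSH-23 the counts were 2 and 2, against 25.0% and 25.5% of all genes with vehicle and 23.2% and 23.8% with JSH-23. With JSH-23, DESeq2 called 0 of the 10 higher and 1 lower, where it called 2409 of all 13921 genes higher and 2302 lower. On log2(TPM + 1) 0 of the 10 were positive there, with a median of -0.21, against -0.16 over all genes.

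Of the 11 genes of sterol transport and storage, 10 were tested (*Vldlr* was too low), and JSH-23 in edgeR raised 9 and lowered 0 of them in WT tumors (9 and 0 also at an unadjusted p under 0.05 and in DESeq2), against 28.6% and 27.2% of all genes, and raised 7 and lowered 2 in KO tumors, against 33.4% and 34.4%. Of all 13921 genes, DESeq2 called 3162 higher and 2824 lower with JSH-23 in WT tumors. *Tmem97*, a sterol-responsive membrane protein that binds NPC1, rose by 1.00 in KO tumors and had an interaction of 0.79. *Npc1*, which exports cholesterol from lysosomes, had an interaction of -0.74, rising by 0.42 in WT tumors and falling by 0.33 in KO tumors. *Mylip*, a ubiquitin ligase of lipoprotein receptors and an LXR target, was lower in KO tumors with JSH-23 at -0.78, and *Tmem97* was higher at 0.70. In KO against WT tumors, 3 of the 10 were higher and 2 lower with vehicle, against 25.0% and 25.5% of all genes, and 3 higher and 5 lower with JSH-23, against 23.2% and 23.8%. Of the 10 genes that process SREBP or act with it, JSH-23 raised 3 and lowered 3 in KO tumors, near the 33.4% and 34.4% of all genes, and raised 3 and lowered 2 in WT tumors, near 28.6% and 27.2%. *Mbtps1*, the first protease to cut SREBP in the Golgi, was lower in KO tumors with vehicle at -0.61. With JSH-23 it rose by 0.63 in KO and 0.17 in WT tumors. Between genotypes, 3 of these 10 were higher and 3 lower with vehicle (25.0% and 25.5% of all genes), and 1 higher and 5 lower with JSH-23 (23.2% and 23.8%). DESeq2 called 0 higher and 5 lower with JSH-23, where it called 2409 of all 13921 genes higher and 2302 lower. For JSH-23 in KO tumors, the median of the 10 went from -0.006 to -0.24 on log2(TPM + 1), where that of all genes was -0.20.

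Of the 20 other genes of fatty acid and lipid synthesis, JSH-23 raised 14 and lowered 4 in KO tumors (33.4% and 34.4% of all genes) and raised 10 and lowered 2 in WT tumors (28.6% and 27.2%). *Acsl3*, which activates fatty acids, rose by 1.27 in KO and 0.75 in WT tumors. *Dgat2*, which makes triglyceride, fell by 1.48 in KO and 0.90 in WT tumors. *Mid1ip1*, a partner of acetyl-CoA carboxylase, rose by 0.91 in WT and 0.36 in KO tumors. In KO tumors with vehicle, 5 of the 20 were higher and 12 lower (25.0% and 25.5% of all genes), with *Fads1*, a desaturase of polyunsaturated fatty acids, at -0.63, and *Thrsp* at 2.74 from only 1 to 40 counts per sample. There edgeR called 2 of the list higher by 1.5-fold (7.48% of all genes) and DESeq2 1 (5.54%). With JSH-23, 6 were higher and 5 lower in KO tumors (23.2% and 23.8% of all genes), with *Elovl7*, an elongase, at -1.07. DESeq2 called 4 higher and 2 lower in that comparison, where it called 2409 of all 13921 genes higher and 2302 lower. On log2(TPM + 1) 4 of the 20 values were positive there, against 10 in edgeR, and the median was -0.19. Of the 15 genes of fatty acid oxidation, the opposing pathway, JSH-23 raised 8 and lowered 3 in KO tumors (33.4% and 34.4% of all genes) and raised 8 and lowered 5 in WT tumors (28.6% and 27.2%). *Slc25a20*, the carnitine carrier, rose by 0.71 in KO and 0.56 in WT tumors. Between genotypes, 3 of the 15 were higher and 7 lower with vehicle (25.0% and 25.5% of all genes), and 4 higher and 5 lower with JSH-23 (23.2% and 23.8%). There *Ppara*, the receptor gene that drives the pathway, was at -0.94 in edgeR from 16 to 45 counts per sample, ranging from -1.01 to -0.31 over the scalings, and DESeq2 called 0 of the list lower by 1.5-fold. The medians of the last 2 lists for the interaction, 0.12 and 0.16, turned to -0.07 and -0.04 on log2(TPM + 1), and those for JSH-23 in KO tumors, 0.30 and 0.30, shrank to 0.06 and 0.04. Between genotypes under JSH-23 the oxidation median turned from 0.06 to -0.13 and that of the 7 fatty acid synthesis genes from 0.17 to -0.02, and with JSH-23 in KO tumors that of the 6 SREBP control genes from 0.23 to -0.0038.

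The promoters of the genes were searched for 3 motifs on both strands, in RefSeq windows on GRCm38.p6 that run from 250 bases before to 50 bases after a transcript start. Windows were found for 28 of the 35 genes, and those without were *Fdps*, *Fdft1*, *Sqle*, *Stard4*, *Scd1*, *Scd2* and *Abcg1*. The CCAAT box, bound by NF-Y, which acts beside SREBP on sterol genes, was present for 21 of the 28 genes, against 41.1% of all genes with a window. It was present for 5 of 6 genes before squalene, 9 of 9 after squalene, 4 of 5 SREBP control genes, 3 of 5 fatty acid synthesis genes and 0 of 3 LXR and efflux genes. The sterol regulatory element core TCACNCCAC was present for 1 of the 28, *Hmgcs1*, against 1.44% of all genes, and the LXR element, a direct repeat of AGGTCA with a spacer of any 4 bases, for 0 of the 28, against 0.0148%. No match of a motif overlapped a match of another. A match is a description of letters, and no match says only that these letters are not in the window.

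The sequences below are those of the sterol enzymes that JSH-23 raised 1.5-fold in KO tumors and that had a window, as the 100 bases before the start, and the 69 bases around the element of *Hmgcs1*. Capitals mark the CCAAT box, written ATTGG where it lies on the other strand, and in *Hmgcs1* the sterol element. They are read 5′ to 3′ on the strand of the gene. *Mvk* is at chr5:114444169-114444268 on the plus strand, *Mvd* at chr8:122443423-122443522 on the minus strand, *Idi1* at chr13:8885506-8885605 on the plus strand, *Tm7sf2* at chr19:6067851-6067950 on the minus strand, *Msmo1* at chr8:64733579-64733678 on the minus strand, *Nsdhl* at chrX:72918421-72918520 on the plus strand and *Hmgcs1* at chr13:119690184-119690252 on the plus strand.
Mvk: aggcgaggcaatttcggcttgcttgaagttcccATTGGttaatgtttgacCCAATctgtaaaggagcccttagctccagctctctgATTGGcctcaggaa
Mvd: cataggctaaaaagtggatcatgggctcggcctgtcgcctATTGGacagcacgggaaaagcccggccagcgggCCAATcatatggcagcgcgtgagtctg
Idi1: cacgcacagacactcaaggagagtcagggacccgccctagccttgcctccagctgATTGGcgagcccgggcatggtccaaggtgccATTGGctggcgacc
Tm7sf2: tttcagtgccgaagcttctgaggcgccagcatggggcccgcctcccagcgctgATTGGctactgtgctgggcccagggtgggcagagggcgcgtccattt
Msmo1: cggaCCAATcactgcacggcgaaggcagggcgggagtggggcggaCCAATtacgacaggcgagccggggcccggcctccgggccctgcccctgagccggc
Nsdhl: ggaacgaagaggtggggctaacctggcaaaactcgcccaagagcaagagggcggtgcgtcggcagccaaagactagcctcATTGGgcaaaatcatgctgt
Hmgcs1: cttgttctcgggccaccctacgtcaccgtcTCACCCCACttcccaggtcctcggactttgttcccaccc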

How the data were processed

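RNA-seq was measured in 8 samples, 2 in each of 4 groups taken from the sample labels. The count values were deposited by the authors as raw reads per gene, 1 file per sample, and the TPM values were computed by the authors from those counts and the gene length. The study's methods name TopHat2 and HTSeq, while the submitters' notes name HISAT2, HTSeq and DESeq2, so the aligner is uncertain. Counts were filtered with filterByExpr, scaled by TMM and tested with edgeR 4.0.16 (quasi-likelihood, R 4.3.3) over 13921 genes, with Benjamini-Hochberg adjustment and a threshold of 0.05. Library totals ran from 16401581 to 21972231, where 3 counts equal 0.144 to 0.182 CPM. Levels per length used the TPM values. The tests were tried on simulated data.

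Named in full are, for each role, the genes with the largest rise and fall among those called with a 1.5-fold change, and genes with an interaction of that size. *Fasn*, *Scd2* and the genes given by log2 value alone were chosen after their values were seen. The genes and lists were chosen with earlier results of these data known. Alternatives were DESeq2 1.42.0, no TMM, no filter, a replicate block, only the compared groups, limma 3.58.1 on log2(TPM + 1) and log2(TPM + 0.1), a biological coefficient of variation of 0.1 or 0.2, a test against 1.5-fold, leaving out each sample, and levels without gene length. Figures used matplotlib 3.10.9. The value of 1 listed gene is not reported here.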

Additional observations from a re-analysis of the deposited data

Results flagged for a closer look

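The effect of JSH-23 differed between KO and WT tumors, by the interaction test in edgeR, for 24 of the 34 genes tested, against 38.4% of all genes. The interaction (log2 fold change in KO minus that in WT tumors) was, before squalene, *Acat2* 0.35, *Hmgcs1* 0.26, *Mvk* 0.58, *Pmvk* 0.37, *Mvd* 0.45, *Idi1* 0.90, *Fdps* 1.03, *Fdft1* 0.48. After squalene it was *Sqle* 0.32, *Lss* 0.62, *Msmo1* 0.42, *Nsdhl* 0.64, *Sc5d* -0.29. Among the SREBP control genes it was *Srebf1* 0.27, *Srebf2* 0.34, *Scap* -0.14, *Stard4* 0.86, and among the fatty acid synthesis genes *Fasn* 0.37, *Acly* 0.37, *Scd1* 0.30, *Scd2* 0.32, *Acss2* 0.36, *Elovl6* 0.27. For *Abca1* it was -0.63. In the same order, the lowest values over the scalings were 0.14, 0.056, 0.38, 0.17, 0.24, 0.65, 0.82 and 0.27 before squalene. After squalene they were 0.12, 0.40, 0.22, 0.42 and -0.49, and for the SREBP control genes 0.071, 0.15, -0.33 and 0.63. For the fatty acid synthesis genes they were 0.17, 0.17, 0.097, 0.12, 0.16 and 0.052, and for *Abca1* -0.80. For the negative genes *Sc5d*, *Scap* and *Abca1* the lowest value is the one farthest from 0. The highest for *Abca1* was -0.62. A negative value means a log2 fold change in KO tumors below that in WT tumors, as for *Abca1*, which fell further in KO tumors. DESeq2 called 18 genes (25.8% of all genes) and log2(TPM + 1) 14 (40.1%), and a biological coefficient of variation of 0.1 or 0.2 gave 3 (5.37%) and 0 (0.338%). Leaving out each sample in turn ended the call for *Scap* in 7 of 8 fits, for *Elovl6* in 5, for *Acat2* and *Acss2* in 4 each, and for *Hmgcs1* and *Sc5d* in 2 each. The cause of the difference between groups was not tested.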

How the results depend on the processing

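The counts of genes called were within 1.5 times of the values above in DESeq2 (13, 24, 22, 28 and 18 for KO against WT with vehicle, KO against WT with JSH-23, JSH-23 in WT, JSH-23 in KO and the interaction), without TMM, without the filter on low counts, with only the compared groups in the fit, and with a replicate block (19, 26, 24, 30 and 24). Of all genes, DESeq2 called 37.5%, 33.8%, 43.0%, 56.5% and 25.8% in the same order. With the replicate block these shares were 50.7%, 47.1%, 56.0%, 67.9% and 39.1%. Each sample was also left out in turn, with the lone sample assumed to vary like the other groups. Since 1 group then holds 1 sample, only sizes are compared here. The median log2 value of the 34 genes was taken relative to that of all genes, in the same order. With all samples it was -0.0296, 0.334, 0.112, 0.435 and 0.311. Leaving 1 out gave -0.0697 to 0.0166, 0.302 to 0.348, 0.0991 to 0.203, 0.442 to 0.482 and 0.280 to 0.336.

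With a biological coefficient of variation of 0.1, 5, 12 and 11 genes were called in the first 3 comparisons, against 20.6%, 13.6% and 26.1% of all genes. For the interaction 3 were called, against 5.37%, 3 of them with a 1.5-fold change. With a coefficient of 0.2, the counts were 0, 1, 1, 8 and 0, against 4.41%, 1.85%, 5.81%, 15.4% and 0.338% of all genes. With a 1.5-fold change they were also 0, 1, 1, 8 and 0. The edgeR test against the 1.5-fold threshold called 0, 4, 2, 10 and 2, against 4.90%, 2.24%, 5.71%, 15.4% and 1.61% of all genes. With a 1.5-fold change it called 0 for KO against WT with vehicle and 2 for the interaction. On log2(TPM + 1) and log2(TPM + 0.1), 14 and 14 genes were called for the interaction, against 40.1% and 39.2% of all genes. For JSH-23 in KO tumors, 7 and 7 were called with a 1.5-fold change. In either setting 6 of these were raised, against 2.92% and 3.97% of all genes, and 1 lowered, against 19.9% and 25.3%. *Scd2* made up 47.3% of the summed level without gene length.

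On log2(TPM + 1) and log2(TPM + 0.1) the sign turned for KO against WT with JSH-23 in *Srebf1* -0.00616 and -0.00623, *Scap* -0.14 and -0.15, *Acaca* -0.17 and -0.17, *Scd2* -0.0197 and -0.0197, and for JSH-23 in KO tumors in *Acat2* -0.0237 and -0.0245, *Srebf1* -0.0708 and -0.0717, *Insig1* -0.0424 and -0.0444, *Acly* -0.0565 and -0.0569. These settings lower the median of all genes as well, and relative to it 15 of the 16 values were above 0, the other being *Acaca* at -0.00757 on log2(TPM + 1). Over all settings, 2537 of 3058 values of single genes kept their sign and their side of the threshold, 425 lost the call, 21 gained it, 16 turned and 59 uncalled values changed sign. DESeq2 gave no adjusted p for 1 of 170 values, and the fit with only the compared groups gave no value for 1. *Abcg1* and *Nr1h3* had few counts, and the smallest change that could be detected in them was not tested.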
